A study of Homo sapiens with 6 samples.

Results

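The complement genes described here are 9 named genes, CFB, C3, C1R, C1S, CFI, SERPING1, CD46, CD55 and CD59, of the 62492 genes listed for each library. They were chosen by name, with the differences between siNONO and siControl in these libraries already known. The differences between the groups are therefore given for them as a description, with no p-value. Where one of them is said to be called, this records only that its value passed the threshold used for all genes, and it is not independent evidence. All 9 were measured in every library, and all 9 were among the 17000 genes that passed the filter on low counts. The samples were HCT116 cells, an established colorectal cancer cell line, transfected with small interfering RNA at 20 nM by lipofectamine RNAiMAX in medium with fetal bovine serum. The siControl cells received a control siRNA and carry the genotype label WT, and the siNONO cells received an siRNA against NONO, a nuclear RNA- and DNA-binding protein of paraspeckles, and carry the label of a NONO knockdown. Each group had 3 libraries of polyadenylated RNA, labelled Set 1 to Set 3, and the comparison asked what changes in the transcriptome when NONO is depleted. A single siRNA against NONO was used, so loss of NONO and any other effect of that duplex cannot be told apart. Nothing in the labels says that the Sets were separate cultures, so the spread between libraries may be partly technical.

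Complement is a cascade of plasma and cell-bound proteins that marks and lyses target cells. The classical route starts when the proteases C1r and C1s are activated on C1q, and the alternative route is driven by C3b together with factor B. Because both routes can attack host cells, regulators hold them in check, either in the fluid phase (C1 inhibitor and factor I, for example) or on the plasma membrane (CD46, CD55, CD59). The liver makes most plasma complement, but epithelial cells also transcribe several components, and interferons and inflammatory cytokines are known to raise some of them, factor B among them.

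The libraries held between 21765393 and 32659002 estimated counts, and counts are given below as deposited. Differences were computed on rounded counts, scaled to a common library size (CPM) by the trimmed mean of M-values (TMM), with Set as a block. A gene is called higher or lower here when its p, from the quasi-likelihood test of edgeR and adjusted by the Benjamini-Hochberg method over 17000 genes, was at most 0.05. NONO itself fell to 18.9% of siControl in the fit on scaled counts. Its level went from 367 ± 38.2 to 77.6 ± 3.51 TPM (a level corrected for transcript length, here the mean ± SD, n = 3), and the groups did not overlap. Of the 6 colon epithelial markers examined, 5 passed the filter. The summed level of the 6 was 2091 to 2226 TPM in siControl and 1943 to 2152 TPM in siNONO. Most of this sum was KRT8 and KRT18, at 1251 and 617 TPM on average in siControl. EPCAM was the 1 marker called higher, by 0.32 on the log2 scale (edgeR adjusted p = 3.5e-06), and 0 were called lower. These calls stand beside 23.2% called higher and 23.4% called lower over all genes tested. VIL1, an epithelial brush border gene, had at most 7.14 counts in a library.

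Transcripts of the membrane regulators were far more abundant than those of the components they act on. In siControl cells CD59 was listed at 121 ± 6.90 TPM, CD46 at 104 ± 4.13 TPM and CD55 at 24.5 ± 1.61 TPM (SD, n = 3). C1R followed at 6.63 ± 0.523 TPM, SERPING1 at 3.41 ± 0.509 TPM, C3 at 1.72 ± 0.380 TPM and C1S at 1.71 ± 0.481 TPM. The lowest levels were those of CFB, at 0.923 ± 0.0306 TPM, and CFI, at 0.620 ± 0.255 TPM. C3 and C1S overlapped in their libraries and did not differ beyond their spread, whereas each other neighbouring pair in this order was separated in TPM in all 3 siControl libraries. For CFB and CFI the margin was only 0.89 against 0.87 TPM, from 53 and 60.85 siControl counts. In CPM these 2 genes overlapped, at 0.516 to 0.803 for CFB and 0.329 to 1.09 for CFI, so their order is not settled. CD59 stood at percentile 93.8 of the tested genes by siControl TPM, C1R at percentile 38.8 and CFB at percentile 12.9. The secreted components among the 9 genes thus came from the less abundant part of the transcriptome. This does not extend to every complement gene described below, since CLU was at 638 ± 37.6 TPM and CFD at 32.4 ± 2.27 TPM in siControl.

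**Figure D1:**
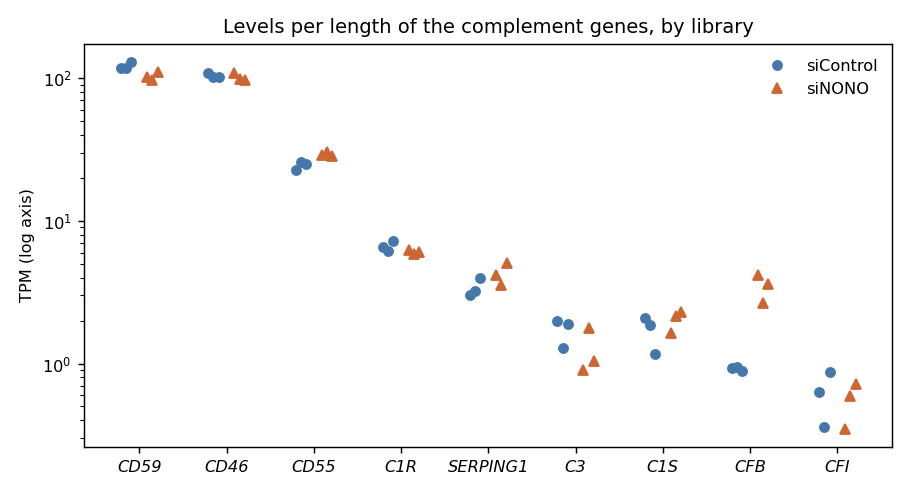
Level per length of the 9 complement genes in each library, in TPM on a log axis, with circles for the 3 siControl libraries and triangles for the 3 siNONO libraries, ordered by the siControl mean. CD59, CD46 and CD55 lie above 20 TPM in every library, and CFB is the gene whose groups lie farthest apart.

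After siNONO, CFB moved from rank 8 to rank 6 of the 9 genes, at 3.48 ± 0.753 TPM, where its libraries overlapped those of SERPING1. C3 came after C1S, with overlapping libraries. CD59 and CD46, which were separated in siControl, overlapped in siNONO cells at 103 ± 7.19 and 102 ± 6.54 TPM. The 3 membrane regulators together made up 94.3 ± 0.288% of the summed TPM of the 9 genes in siControl and 93.0 ± 0.297% in siNONO.

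Of the 9 genes, 2 were called higher in siNONO (CFB and CD55), 1 was called lower (C3) and 6 were not called. Over all 17000 genes tested, 23.2% were called higher and 23.4% lower. The same 3 genes were those whose CPM did not overlap between the groups, which over all genes held for 23.9% in the higher and 24.0% in the lower direction. Because the genes were chosen with this contrast known, nothing is read from these counts. The median log2 fold change of the 9 genes was -0.02, beside -0.0048 over all genes tested. In whole-culture RNA of this kind, fewer expressing cells and less RNA per cell cannot be told apart.

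CFB encodes factor B, the zymogen that binds C3b and supplies the catalytic subunit of the alternative pathway C3 convertase. The gene (ENSG00000243649.9_5) lies on the plus strand at chr6:31913427-31919863 (GRCh37). In Sets 1 to 3 its counts were 17, 22 and 14 with siControl, against 87, 66 and 96 with siNONO. Every siNONO library was above every siControl library, and the lowest siNONO count was 3 times the highest siControl count. Scaled for depth, the level was 0.652 ± 0.144 CPM in siControl and 2.95 ± 0.536 CPM in siNONO. The fitted log2 fold change was 2.16 ± 0.26 (SE), 4.48-fold, which put CFB at rank 58 from the top of the 17000 genes. By Set it was 2.56, 1.56 and 2.43, so Set 2 showed the smallest difference. The siControl values rest on 53 counts in 3 libraries, against 249 counts in siNONO. CFB shares 24 annotated bases on the same strand with its neighbour C2. C2 encodes the homologous zymogen of the classical and lectin pathways, and when both genes were summed the log2 fold change was 1.53 ± 0.21 (SE).

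The promoter of CFB was examined because it was the gene with the largest difference. Sequence covering 250 bases before to 50 bases after the start site was taken from RefSeq (GRCh38.p14), in which 6 of the 9 genes had 11 promoters (CFB, CFI, C1R, CD46, CD55 and CD59). In the lines that follow, sequence is written 5′ to 3′ on the gene's strand in lower case. Capitals mark matches to 3 motifs searched on both strands: the interferon-stimulated response element (ISRE, GAAA, any 2 bases, then GAAA), the gamma-activated site (GAS, the palindrome TTCNNNGAA) and the usual NF-kB consensus. The promoters of CFB (chr6:31945845-31946144, plus strand) and CD55 (chr1:207321428-207321727, plus strand) are those of the genes called higher. The first CD59 promoter (chr11:33736430-33736729, minus strand) and the second C1R promoter (chr12:7091844-7092143, minus strand) also hold a match. Another CD59 promoter, which overlaps the first and holds the same site, is not shown.
CFB: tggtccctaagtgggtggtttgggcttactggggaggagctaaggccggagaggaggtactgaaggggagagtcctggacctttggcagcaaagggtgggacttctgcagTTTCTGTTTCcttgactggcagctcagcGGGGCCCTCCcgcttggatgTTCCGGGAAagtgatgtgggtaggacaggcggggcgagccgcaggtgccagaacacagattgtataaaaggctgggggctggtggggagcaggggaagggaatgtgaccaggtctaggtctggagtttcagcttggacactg
CD55: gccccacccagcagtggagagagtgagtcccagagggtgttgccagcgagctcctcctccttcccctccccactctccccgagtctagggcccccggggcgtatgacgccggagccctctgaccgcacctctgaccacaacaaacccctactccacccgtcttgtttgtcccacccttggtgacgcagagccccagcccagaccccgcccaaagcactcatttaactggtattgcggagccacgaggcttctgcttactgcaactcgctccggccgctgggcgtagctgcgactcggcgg
CD59: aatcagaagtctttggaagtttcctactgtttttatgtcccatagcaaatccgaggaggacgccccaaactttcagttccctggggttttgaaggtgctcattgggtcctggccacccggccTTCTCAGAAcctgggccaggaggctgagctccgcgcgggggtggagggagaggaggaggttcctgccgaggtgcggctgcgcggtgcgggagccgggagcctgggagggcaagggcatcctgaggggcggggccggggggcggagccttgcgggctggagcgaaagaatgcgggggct
C1R: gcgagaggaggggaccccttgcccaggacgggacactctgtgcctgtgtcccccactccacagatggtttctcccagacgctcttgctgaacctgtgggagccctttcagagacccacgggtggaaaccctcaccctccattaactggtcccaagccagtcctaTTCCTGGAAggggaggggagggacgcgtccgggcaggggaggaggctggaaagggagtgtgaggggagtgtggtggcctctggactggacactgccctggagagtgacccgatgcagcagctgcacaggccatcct

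CFB was the 1 gene of the 6 whose promoter held all 3 motifs. Counted from the start site, the ISRE match lay on the opposite strand at -140 to -131, the NF-kB match at -112 to -103 and the GAS match at -92 to -84, and none of them overlapped another. Over all 34943 promoters in the table, 3.57% held an ISRE match, 7.66% a GAS match and 11.3% an NF-kB match. C1R, not called, had a GAS match at -86 to -78 in its second promoter. CD59, also not called, had a GAS match at -128 to -120, and the same site lies in another of its overlapping promoters. None of the 3 motifs was found in the promoters of CFI, CD46 or CD55. A match describes letters in a window and is not a site of binding.

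Several factors known to act through these motifs were themselves measured. IRF9, the DNA-binding subunit of the factor that binds ISREs, rose from 18.7 ± 2.38 to 65.7 ± 3.39 TPM. In scaled counts the log2 fold change of IRF9 was 2.05 ± 0.06 (SE), and STAT2, another subunit of that factor, rose by 0.92 ± 0.04. STAT3 and IRF1 rose less, by 0.56 ± 0.03 and 0.31 ± 0.06. Of the NF-kB subunits, NFKB1 fell by 0.14 ± 0.05 and RELA rose by 0.13 ± 0.03, and RELA had the opposite sign, -0.02, on the log2(TPM + 1) scale. CEBPB and CEBPD, which are also known to act on complement promoters, fell by 0.28 ± 0.05 and 0.50 ± 0.17. Over 16 alternatives, NFKB1 lost its call in 7, RELA in 4 beside the change of sign, CEBPD in 3 and IRF1 in 1. DESeq2 called none of NFKB1, RELA and CEBPD, and without the block neither NFKB1 nor RELA was called. Among single libraries, NFKB1 lost its call without the siControl library of Set 2 (-0.16) or either library of Set 3 (-0.086 and -0.089), RELA without either library of Set 1 (0.13 each) and CEBPD without either library of Set 2 (-0.29 and -0.30). The part of any of these factors in the CFB difference was not tested.

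**Figure D2:**
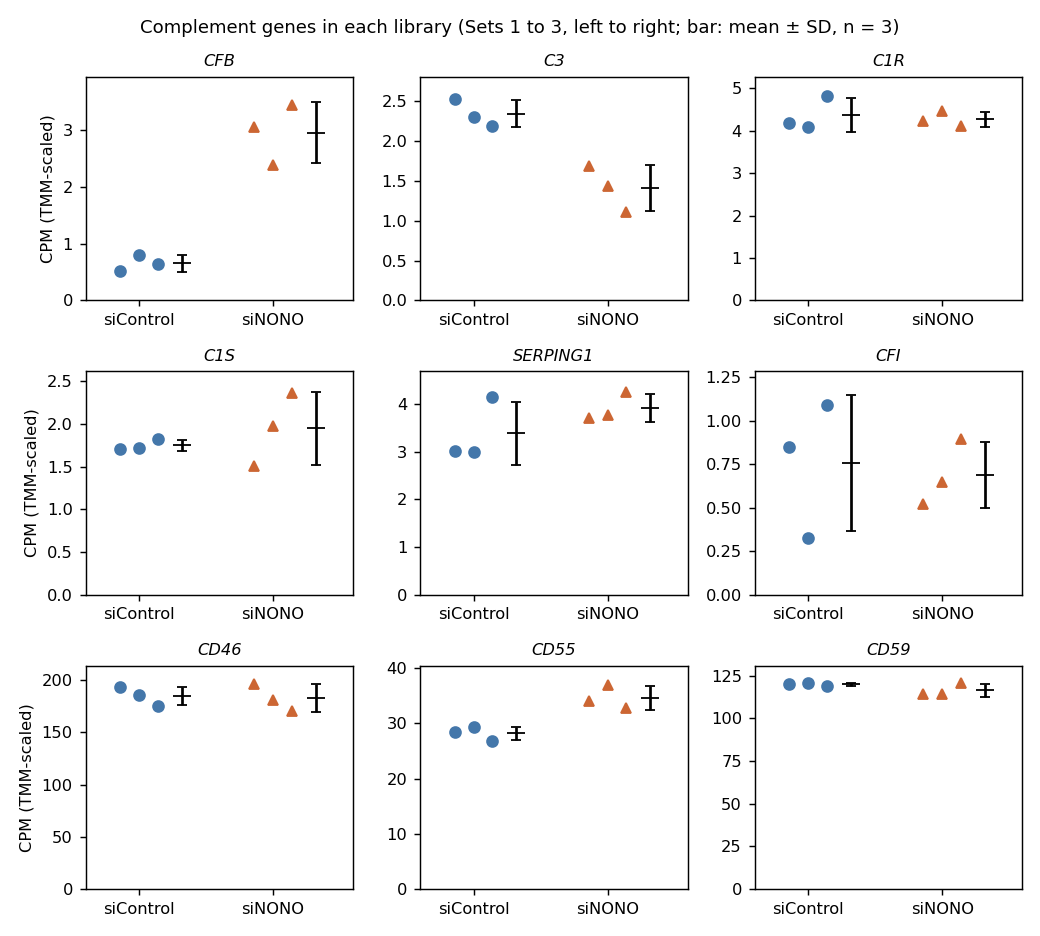
TMM-scaled counts (CPM) of each gene in each library, Sets 1 to 3 from left to right, with circles for siControl, triangles for siNONO and a bar for the mean ± SD (n = 3). The groups are apart for CFB (0.652 against 2.95 CPM on average), C3 (2.34 against 1.41 CPM) and CD55 (28.2 against 34.6 CPM) and overlap for the other genes.

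C3, the central component that both convertases cleave, differed in the direction opposite to CFB. The gene (ENSG00000125730.17_7) is on the minus strand at chr19:6677715-6730573. Counts of 83, 63 and 48 in the siControl libraries compare with 48, 40 and 31 in those of siNONO, Sets 1 to 3. At each Set the siNONO library was the lower one, and after scaling the groups did not overlap, at 2.34 ± 0.169 and 1.41 ± 0.286 CPM. The log2 fold change was -0.73 ± 0.21 (SE), or 60.2% of siControl, and it was -0.59, -0.68 and -0.98 by Set. In TPM the groups did overlap, from 1.29 to 2.00 in siControl and from 0.90 to 1.78 in siNONO. The call was lost without the siControl library of Set 3 (log2 fold change -0.62) and with DESeq2 (-0.74). C3 shares 649 bases on its strand with GPR108, a gene with 8249 counts in the 6 libraries, and the difference of the summed pair was 0.10.

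The alternative pathway components were also set against each other. Per length, CFB was listed at 0.558 ± 0.154 times the level of C3 in siControl and at 3.18 ± 1.58 times in siNONO. The ratio ran from 0.465 to 0.736 in siControl and from 1.5 to 4.62 in siNONO, so each siNONO library was above each siControl library. This separation restates differences that were known when the genes were chosen. C3 alone overlapped between the groups in TPM, and it rested on 31 to 83 counts per library.

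C1R and C1S encode the proteases of the C1 complex, and neither was called. C1R (ENSG00000159403.11, chr12:7187513-7245203, minus strand) was counted at 138.28, 111.9 and 106 in the siControl libraries, against 121, 124 and 114.81 with siNONO. The groups overlapped, at 4.37 ± 0.402 and 4.27 ± 0.176 CPM, with a log2 fold change of -0.03 ± 0.14 (SE). C1S (ENSG00000182326.15_6, chr12:7096351-7178336, plus strand) was counted at 56, 47 and 40, against 43, 55.01 and 66 with siNONO. Its Sets did not share a direction, at -0.18, 0.20 and 0.37, around a fitted value of 0.13 ± 0.21 (SE). Both genes lie side by side on chromosome 12, on opposite strands, and C1R shares 3021 bases on its own strand with C1RL, a related protease gene with 4270 counts. The level of C1R was 4.19 ± 1.68 times that of C1S in siControl and 3.04 ± 0.659 times in siNONO, with overlapping libraries.

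The fluid-phase regulators were not called either. SERPING1, the gene of C1 inhibitor, inactivates C1r and C1s (ENSG00000149131.16_6, chr11:57364860-57386644, plus strand). Its siControl counts were 99, 82 and 91, beside 106, 105 and 119 with siNONO. The siControl library of Set 3, at 4.15 CPM, lay above 2 of the siNONO libraries, and the log2 fold change was 0.22 ± 0.15 (SE). CFI encodes factor I, the protease that cleaves C3b and C4b with a cofactor (ENSG00000205403.13_5, chr4:110652164-110723306, minus strand). Its siControl counts were 28, 8.85 and 24, beside 14.88, 18 and 25 with siNONO. These are the lowest counts of the 9 genes in siNONO, the Sets gave -0.70, 0.98 and -0.29, and the log2 fold change of -0.09 was smaller than its SE of 0.36.

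The membrane regulators were measured far more precisely. CD55, or decay-accelerating factor, takes C3 and C5 convertases apart and was higher in siNONO (ENSG00000196352.16_8, chr1:207494864-207560149, plus strand). The siControl libraries held 937, 802 and 590 counts, against 972, 1028 and 916 with siNONO. The level was 28.2 ± 1.22 CPM in siControl and 34.6 ± 2.16 CPM in siNONO, and the groups overlapped neither in CPM nor in TPM. The log2 fold change of 0.29 ± 0.05 (SE), 1.22-fold, was 0.26, 0.34 and 0.29 by Set.

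CD46, the membrane cofactor with which factor I cleaves C3b and C4b, also lies on chromosome 1 and showed no such difference (ENSG00000117335.20_5, chr1:207925382-207968858, plus strand). The siControl libraries held 6366, 5086 and 3856 counts, against 5633, 5037 and 4768 with siNONO. The log2 fold change was -0.02 ± 0.03 (SE), with 185 ± 8.77 CPM in siControl and 183 ± 13.3 CPM in siNONO. The level of CD55 was 0.237 ± 0.0239 times that of CD46 in siControl and 0.289 ± 0.0236 times in siNONO, and these ratios did not overlap between the groups.

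CD59, which blocks the membrane attack complex at its last step, gave a different result on its 2 scales (ENSG00000085063.17_7, chr11:33724556-33758025, minus strand). In counts it was 3958, 3302.34 and 2606.53 with siControl, against 3274.47, 3175.49 and 3374.72 in siNONO. The scaled groups overlapped, at 120 ± 0.923 and 116 ± 3.71 CPM, and the log2 fold change was -0.04 ± 0.03 (SE). In TPM, by contrast, it was 117.41, 117.42 and 129.36 in siControl and 101.85, 97.04 and 111.19 in siNONO. On that scale the groups did not overlap, and the difference in log2(TPM + 1) was -0.23 and called by limma. Over all genes tested, the median difference in log2(TPM + 1) was -0.071, with 3614 genes called lower and 1643 higher.

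**Figure D3:**
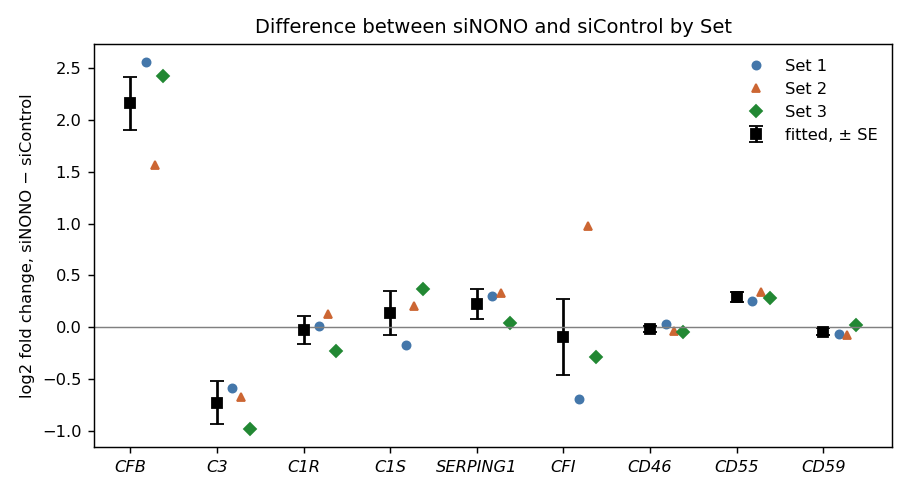
Log2 fold change of siNONO over siControl for each gene, with the fitted value ± SE as squares and the value within Set 1, Set 2 and Set 3 as circles, triangles and diamonds. The Sets lie on 1 side of 0 for CFB, C3, SERPING1 and CD55 and on both sides for the other 5 genes.

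The level per length depends on the mean transcript length that was estimated for each library, and that length was also compared. For CD59 it was 1596 ± 81.7 bases in siControl and 1697 ± 45.1 bases in siNONO, 21.1% and 22.4% of the 7563 bases of its canonical transcript in the annotation. CD46 was the 1 gene of the 9 whose lengths did not overlap, with 2735, 2723 and 2665 bases in siControl and 2623, 2601 and 2516 in siNONO. Over all genes tested, 5.83% had shorter and 5.46% longer lengths without overlap. For C3 the length ran from 1252 to 2721 bases between siNONO libraries, against 5231 bases for the canonical transcript. C1S had 2416 bases in siControl Set 3 and between 1358 and 1575 bases in every other library. These lengths are estimates from low counts for C3 and C1S, and they move the TPM of a gene without any change in its counts.

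**Figure D4:**
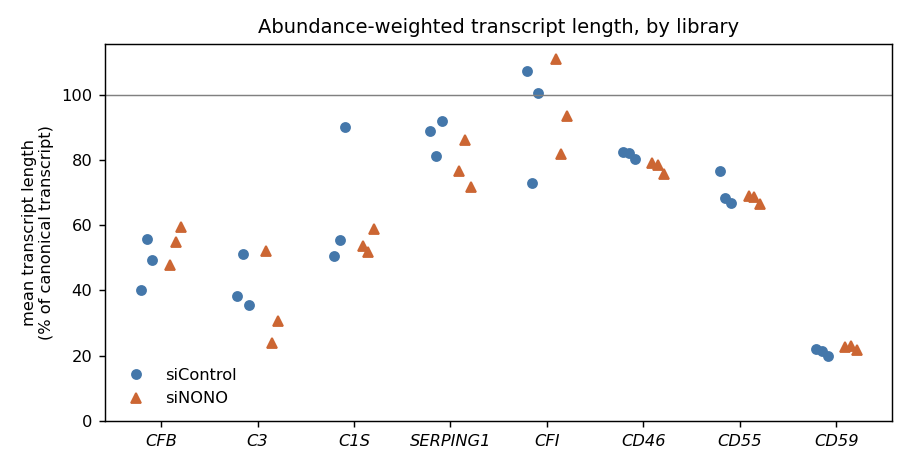
Abundance-weighted mean transcript length of 8 of the 9 genes in each library, as a percent of the canonical transcript, with circles for siControl and triangles for siNONO and a line at 100%. CD59 lies between 19 and 23% in all libraries, C3 is scattered in both groups, and CD46 is the gene whose groups are apart.

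The remaining pathway was described with 50 other complement genes. Of these, 19 were listed at 0 in all 6 libraries, among them C1QA, C1QB and C1QC, the subunits of C1q, C6, C7, C8A and C8B of the membrane attack complex, and MBL2 of the lectin pathway. A further 12 genes had counts but did not pass the filter, with at most 46 counts over the 6 libraries, and 19 genes were tested. Of the 19 tested, 3 rose, C1QBP among them, 2 fell (C5AR1 and CLU) and 14 did not pass the test, beside 23.2% called higher and 23.4% called lower over all genes tested. The CPM of the groups did not overlap for 4 of the 19 in the higher and 3 in the lower direction, beside 23.9% and 24.0% over all genes. The median log2 fold change of the 19 was 0.20, beside -0.0048 over all genes, and it depended on the libraries and the filter. It was 0.0098 without the siControl library of Set 3, 0.047 without the siNONO library of Set 3 and 0.032 over genes with at least 10 counts in every library.

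The called genes described here are a receptor and 2 abundant proteins with further functions. C5AR1, the receptor for the anaphylatoxin C5a, went from 215, 190 and 147 counts with siControl to 98, 109 and 133 with siNONO. It fell to 59.5% of siControl (log2 fold change -0.75 ± 0.13 SE, edgeR adjusted p = 0.000342), and its groups did not overlap. CLU, the gene of clusterin, an extracellular chaperone that also binds terminal complement components, fell by 0.31 ± 0.03 on the log2 scale, from 285 ± 8.83 to 230 ± 8.23 CPM. C1QBP, a mostly mitochondrial protein known to bind C1q, rose by 0.20 ± 0.03, from 280 ± 15.1 to 322 ± 0.654 CPM.

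Among the genes that did not pass, C2 was nearest to the threshold. Its counts were 25, 29 and 15 with siControl, against 39.81, 34 and 43 with siNONO, without overlap in CPM, and its log2 fold change was 0.73 ± 0.28 (edgeR adjusted p = 0.0521). It passed in 7 of 15 alternatives, which include leaving out either library of Set 2 (1.02 and 1.01), no filter, no block and limma. MASP2, a protease of the lectin pathway, had a log2 fold change of -0.43 ± 0.19 (edgeR adjusted p = 0.0816), and ITGAX, a subunit of complement receptor 4, 0.46 ± 0.19 (edgeR adjusted p = 0.0596). Without either library of Set 3 both genes passed, MASP2 at -0.58 and -0.59 and ITGAX at 0.60 in each. Over 16 alternatives MASP2 passed in these 2 and ITGAX in 5. CFD, the protease that cleaves factor B, had 1736 counts in siControl and 1894 in siNONO and a log2 fold change of 0.08 ± 0.06. C4A and C4B, paralogs whose reads can be exchanged, had 0.12 ± 0.42 and -0.27 ± 0.20.

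The neighbourhood of the genes was also described. Apart from each other, the 9 genes had 16 nearest protein-coding neighbours, of which 11 were tested. Of these, 4 were called higher and 7 did not pass the test, beside 23.2% called higher over all genes. UBE2L6, the ubiquitin-like conjugating enzyme for ISG15 that lies beside SERPING1, rose by 1.20 on the log2 scale (edgeR adjusted p = 2.22e-09), whereas SERPING1 itself was at 0.22. NELFE beside CFB, LPCAT3 beside C1S and GPR108 beside C3 rose by 0.17, 0.26 and 0.14, each less than UBE2L6. NELFE lost its call in 4 of 16 alternatives and GPR108 in 7 of 15. Among single libraries, NELFE lost it without either library of Set 1 (0.10 each), and GPR108 without either library of Set 2 (0.15 and 0.14) or Set 3 (0.11 and 0.10). Over the 6 libraries the genes whose log2 CPM was most like that of CFB were HOXA10-AS, SH2D4A and TRIAP1, with Pearson's r of 0.999, 0.998 and 0.998. Their log2 fold changes were only 0.58, 0.20 and 0.35, against 2.16 for CFB, and r does not measure the size of a difference. Among the 13340 genes compared, 908 had r above 0.95, and all points share the 2 groups and the same 6 libraries. HOXA10-AS is an antisense RNA, and the strand setting of the counting is not given in the sources used here.

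Markers of other cells that make complement were at or near 0 except for a few genes. The hepatocyte genes APOB and TTR were at 0 in all 6 libraries. ALB had 6, 2 and 4 counts with siControl and 13, 9 and 8 with siNONO, without overlap in CPM. APOA1 went the other way, from 1 count in each siControl library to 0 with siNONO. Neither ALB nor APOA1 passed the filter on low counts. SERPINA1, a protease inhibitor gene, was at 6.84 ± 0.258 TPM in siControl and 6.58 ± 0.445 TPM in siNONO and made up nearly all of the hepatocyte sum, and the summed level of the 5 hepatocyte markers was 6.98 to 7.48 TPM in siControl and 7.19 to 7.70 TPM in siNONO. Of the 8 leukocyte markers, C1QA, C1QB and C1QC were at 0 and PTPRC had 1 count. CD68, a lysosomal protein also expressed outside leukocytes, was the 1 leukocyte marker tested and rose by 1.40 (edgeR adjusted p = 1.8e-05), and the summed level was 2.62 to 6.18 TPM in siControl and 6.71 to 7.33 TPM in siNONO. The 5 fibroblast markers summed to 16.5 to 19.2 TPM in siControl and 16.3 to 18.4 TPM in siNONO. Nearly all of this was COL1A1, a collagen chain gene, at 17.7 ± 1.32 TPM in siControl and 17.4 ± 1.11 TPM in siNONO, whereas COL1A2, the partner chain, was at 0. Neither of the 2 fibroblast markers tested passed the test, beside 23.2% called higher and 23.4% called lower over all genes tested.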

How the data were processed

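RNA sequencing of HCT116 cells was analysed in 3 siControl and 3 siNONO libraries, prepared with a stranded mRNA kit. Per the study's methods, the authors used sickle for trimming, STAR for alignment to GRCh37 and RSEM 1.3.1 for quantification of GENCODE genes. The deposited tables give estimated counts, which need not be whole, TPM (per transcript length and library) and the mean transcript length per gene. Counts sum to 21765393 to 32659002 per library, which limits the precision of genes with few counts. The members and gene lists were chosen with earlier results of these data known.

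Counts were rounded, filtered with filterByExpr, scaled by TMM and fitted in edgeR 4.0.16 (R 4.3.3) with Set as a block. The quasi-likelihood test was used in its edgeR 3 form, with Benjamini-Hochberg adjustment over 17000 genes. The study also adjusted for batch in edgeR, but its methods do not say what the batch was. SE is the absolute log2 fold change divided by the square root of F. Alternatives were other scalings and filters, no block, the edgeR 4 form, DESeq2 1.42.0, limma 3.58.1 on log2(TPM + 1), each library left out, and overlapping genes summed. Named genes were the members, NONO, other complement genes called, nearest neighbours, factors of the motifs and the 3 genes most like CFB. C2, MASP2, ITGAX, CFD, C4A and C4B were named after their values were seen. Gene coordinates come from GENCODE release 44 mapped to GRCh37 and promoters from RefSeq on GRCh38.p14. Some genes that these rules name are not reported here.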

Additional observations from a re-analysis of the deposited data

How the results depend on the processing

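Over 16 alternatives, the 9 genes had 142 values, and 137 of these were on the reported side of the threshold, with the reported sign where the gene was called. The uncalled genes CFI (-0.48 to 0.23), C1R (-0.11 to 0.07) and CD46 (-0.04 to 0.0056) took either sign. CFB was called in all 16 alternatives and ranged from 1.20 on log2(TPM + 1) to 2.5. No complement gene of the 9 was called lower (0) with DESeq2 or with overlapping genes summed, and leaving out 1 library gave 0 to 1. C3 summed with its overlapping gene GPR108 changed sign to 0.10, since GPR108 holds nearly all counts of the sum, and its call was also lost by limma (-0.29). RELA changed sign to -0.025 with limma, and the cause was not tested. Of the other complement genes, 5 were called higher without a filter and in the edgeR 4 form, and 1 with DESeq2, which gave 8 of them no adjusted p. Their median was 0.032 over the 13 genes with at least 10 counts in every library, 0.039 with limma and 0.0098 to 0.16 when 1 library was left out. Without the siControl library of Set 3 it was 0.0098, and without the siNONO library of Set 3 it was 0.047. Over all genes, DESeq2 called 2612 higher and 2615 lower, and limma called 1643 higher, 31.3% of its calls against 49.7% in edgeR. CFI could not be tested at 10 counts in every library. Summing paralogous genes, C4A with C4B among them, was chosen after seeing the data.

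Deviations of same-numbered libraries correlated with r of 0.195, 0.0476 and 0.253 for Sets 1 to 3 across 15541 genes, which are not independent replicates. Across the 10375 genes with a mean CPM of at least 10, r was 0.453, 0.268 and 0.532. The siControl library of Set 1 with the siNONO library of Set 2 gave 0.0706 and 0.187 over these 2 sets of genes. Over the 15541 genes Set 2 therefore showed no pairing. The labels do not say what the Sets share, and the correlation of Set 2 depended on the genes taken. The block was kept in the reported fit. Without the replicate block 3096 genes were called higher and 3068 lower, 2 of the 9 genes were called higher and 1 lower, and CFB was at 2.18. Low counts limit CFB, CFI, C1S and C3 among the 9 genes.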
